A study of Mus musculus with 20 samples.

Results

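The family of miR-148 and miR-152 was followed across cultured midbrain neurons of the mouse on days 1 and 5 in vitro (DIV1 and DIV5), with and without GDNF. The family consists of 3 hairpins, miR-148a, miR-148b and miR-152, each of which gives a 5p and a 3p arm: mmu-miR-148a-3p, mmu-miR-148a-5p, mmu-miR-148b-3p, mmu-miR-148b-5p, mmu-miR-152-3p and mmu-miR-152-5p. Its members were taken by name, as the 6 rows with those names among the 1886 mature miRNA rows that each library lists, and all 6 passed the filter on low counts that left 542 miRNAs for testing. The family was selected on measured values: earlier results of these data had shown differences of miR-148a-3p and miR-152-3p between DIV5 cultures with and without GDNF. The values of that contrast are therefore given as a description without a p-value.

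All cultures were primary midbrain neuron cultures from the ventral mesencephalon of C57Bl6/J embryos of embryonic day 12.5, freed of meninges and grown without serum. GDNF (glial cell line-derived neurotrophic factor, a survival factor of dopaminergic neurons) was added to the medium at 10 ng/ml, and control cultures had no GDNF added. The 4 groups were DIV5 with GDNF, DIV5 control, DIV1 with GDNF and DIV1 control, with 5 small RNA libraries each and 20 in all. The labels do not say whether replicates were separate cultures or dissections, so p-values measure the spread between these libraries only. In such bulk cultures, fewer cells of a type and less RNA per cell cannot be told apart.

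A miRNA hairpin is cut by Drosha and Dicer into a short duplex, and usually the strand from 1 side of the hairpin is kept in Argonaute, where its seed, bases 2 to 8, pairs with target mRNAs. The 3p arms are the guide strands of this family. Among their known targets is the mRNA of DNA methyltransferase Dnmt1, and miR-148a is best known from liver and lipid metabolism.

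The 3p arms are shown first because they share their seed, printed in capitals, and differ only behind it (RefSeq sequences of GRCm38.p6, the mm10 assembly, 5′ to 3′).
miR-148a-3p: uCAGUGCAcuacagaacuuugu
miR-148b-3p: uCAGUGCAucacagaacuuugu
miR-152-3p: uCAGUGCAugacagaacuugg
Counted from the 5′ end, miR-148b-3p differs from miR-148a-3p by C9U and U10C. miR-152-3p differs from miR-148b-3p by C10G and U20G over 21 bases and ends 1 base earlier. Of 1679 mature mouse miRNA names in the RefSeq table, these 3 were the only ones with this seed at bases 2 to 8. The same 7 bases stand 1 position nearer the 5′ end in 7 further names, miR-130a-3p, miR-130b-3p, miR-130c, miR-301a-3p, miR-721, miR-6341 and miR-6389, none of which were added to the family. Whether reads were allowed mismatches in the authors' counting is not given in the sources used here, so a read with errors at the differing bases could be credited to a sister arm.

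The 5p arms are shown because their seeds, again in capitals, do not form 1 set.
miR-148a-5p: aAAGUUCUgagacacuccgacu
miR-148b-5p: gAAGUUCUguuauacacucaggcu
miR-152-5p: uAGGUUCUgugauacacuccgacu
miR-148a-5p and miR-148b-5p shared a seed with each other and with no other name, whereas the seed of miR-152-5p was its own. The hairpins lie on separate chromosomes. Mir148a is on the minus strand of chr6:51269812-51269910, outside annotated genes. Mir148b lies at chr15:103285125-103285221 in an intron of Copz1, and Mir152 at chr11:96850393-96850465 in an intron of Copz2, each on the plus strand like its host gene. Copz1 and Copz2 encode the zeta subunits of the COPI vesicle coat.

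The libraries held 1781030 to 3983722 counted reads in DIV5 GDNF cultures, 1061619 to 4324505 in DIV5 control cultures, 420118 to 1761023 in DIV1 GDNF cultures and 686793 to 1557885 in DIV1 control cultures. Levels are given in CPM, that is, counts per 1e6 counts of a library after TMM scaling, which are shares of the counted miRNA reads and not amounts per cell. The mature arms are 21 to 24 bases long, so CPM were compared between arms without a length correction. Intervals on shares treat each read as a separate molecule and leave out the variation between libraries. PCR copies of a molecule were not told apart, so these intervals may be too narrow.

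The family held 0.666% ± 0.0452 of all counts in DIV5 GDNF cultures, 0.562% ± 0.0934 in DIV5 control cultures, 0.559% ± 0.0331 in DIV1 GDNF cultures and 0.543% ± 0.0600 in DIV1 control cultures (SD, n = 5 each). Nearly all of this came from the 3p arms of miR-148a and miR-148b. Averaged over the 20 libraries, miR-148a-3p ranked 50 and miR-148b-3p ranked 59 among the 1886 rows, with 3161 and 2420 CPM. The next arms were miR-148b-5p at rank 226 with 113 CPM, miR-148a-5p at rank 279 with 54.2 CPM, miR-152-3p at rank 292 with 48.8 CPM and miR-152-5p at rank 350 with 26.1 CPM. The low arms rested on few reads in the shallow libraries: miR-152-5p had 5 to 123 reads per library, and miR-152-3p 13 to 895.

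miR-148a-3p, the most abundant arm, had 3456, 3490, 3850, 3329 and 2965 CPM in the 5 DIV5 GDNF libraries, in the order of their replicate numbers. It had 1864, 2421, 3069, 2558 and 2304 CPM in the DIV5 control libraries. The DIV1 GDNF libraries had 3523, 3315, 3738, 3271 and 3130 CPM, and the DIV1 control libraries 4085, 3525, 3507, 2984 and 2844 CPM. The DIV5 control group was thus the lowest, 2443 ± 436 CPM against 3418 ± 319 CPM in DIV5 GDNF, 3395 ± 238 CPM in DIV1 GDNF and 3389 ± 495 CPM in DIV1 control cultures (SD, n = 5 each). All 5 of its libraries lay below every DIV1 GDNF library, while they overlapped the DIV5 GDNF and the DIV1 control libraries. The other 3 groups overlapped one another over most of their range.

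miR-148b-3p, the sister guide strand from the Copz1 intron, was ordered differently. In DIV5 GDNF libraries it had 2573, 2661, 3140, 2705 and 2897 CPM, against 1943, 2759, 2848, 2369 and 2112 CPM in DIV5 control libraries. At DIV1 it had 2081, 2244, 2448, 2127 and 2566 CPM with GDNF and 2035, 2265, 2505, 2210 and 1919 CPM in control libraries. The means were 2795 ± 226 CPM in DIV5 GDNF, 2406 ± 395 CPM in DIV5 control, 2293 ± 208 CPM in DIV1 GDNF and 2187 ± 225 CPM in DIV1 control cultures (SD, n = 5 each). Every DIV5 GDNF library lay above every library of both DIV1 groups, and the other 3 groups overlapped. At DIV1, with and without GDNF, all libraries of a group had more miR-148a-3p than any had miR-148b-3p, whereas at DIV5 the ranges of these arms overlapped in both groups.

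**Figure D1:**
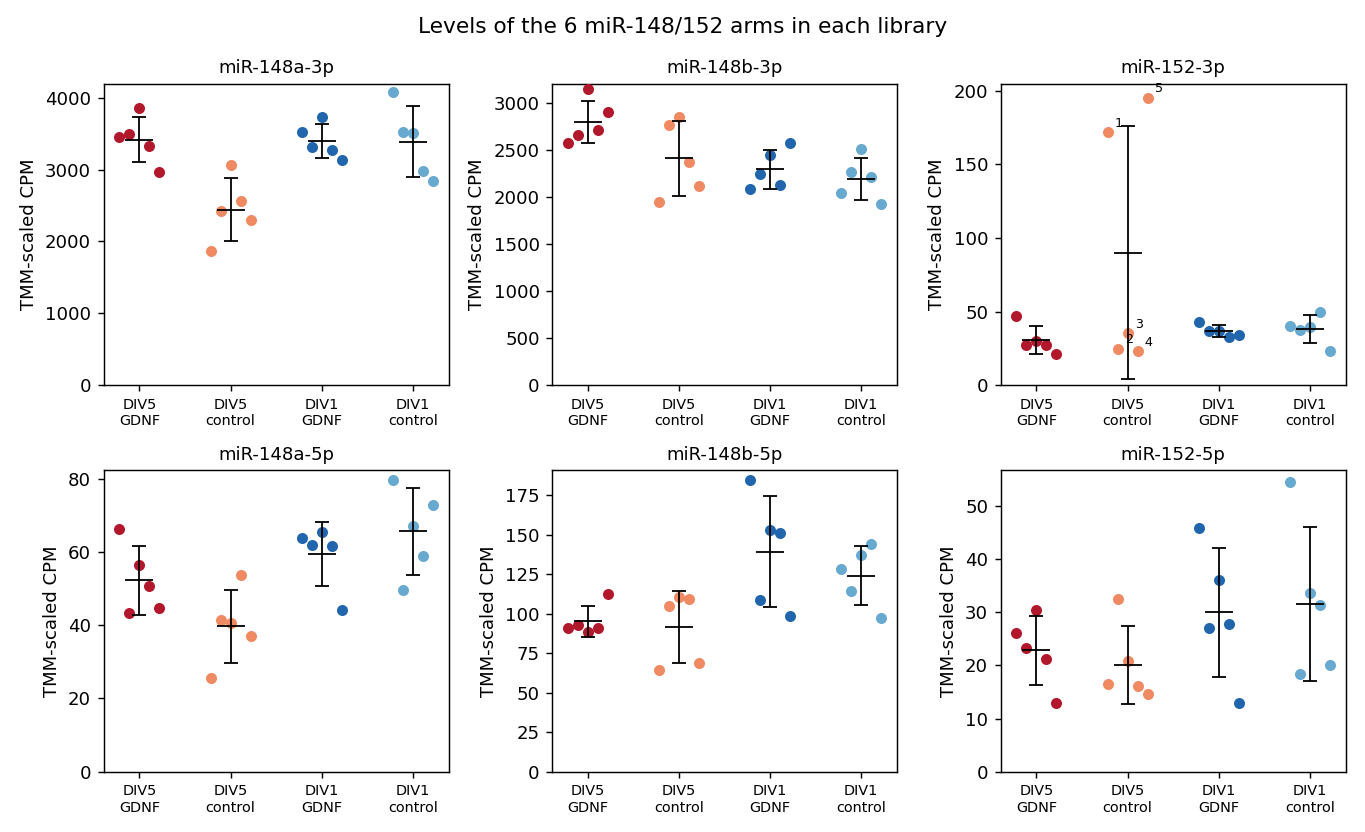
Level of each of the 6 arms in every library, in TMM-scaled CPM on linear axes that start at 0; each point is a library, ordered by replicate number within its group, and bars give the mean ± SD of 5 libraries. DIV5 control libraries 1 and 5, numbered in the miR-152-3p panel, had 172 and 195 CPM of that arm, and the DIV5 control group is the lowest for miR-148a-3p.

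miR-152-3p, the guide strand from the Copz2 intron, was a minor member in all 20 libraries. It had 46.6, 27.4, 30.2, 26.9 and 21.1 CPM in DIV5 GDNF libraries, against 172, 24.7, 35.4, 23.0 and 195 CPM in DIV5 control libraries. The DIV1 GDNF libraries had 43.1, 36.8, 36.7, 32.8 and 33.8 CPM, and the DIV1 control libraries 40.4, 37.6, 39.1, 49.7 and 23.2 CPM. DIV5 control libraries 1 and 5 thus stood above all 18 others, and the DIV5 control mean of 90.1 ± 86.0 CPM (SD, n = 5) became 27.7 ± 6.73 CPM without them (SD, n = 3). The means of the other groups were 30.5 ± 9.64 CPM in DIV5 GDNF, 36.7 ± 3.99 CPM in DIV1 GDNF and 38.0 ± 9.53 CPM in DIV1 control cultures (SD, n = 5 each).

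The other 5 arms did not share that excess. The mean of DIV5 control libraries 1 and 5 was 6.63 times that of libraries 2 to 4 for miR-152-3p, but 0.616 to 0.777 times for the other family arms, miR-152-5p from the same hairpin included. These libraries, singled out after their values were seen, also had the 2 highest values of all 20 libraries for 73 of the 542 tested miRNAs, or 13.5%, and miR-152-3p was the only family arm among them. The opposite arm was also tested for 53 of the 73, and for 16 of these it too was highest in both libraries. The log2 changes of miR-152-3p are therefore given with and without these libraries.

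The hairpin of miR-152 is printed because its arms parted in these libraries; the 5p arm is the first run of capitals and the 3p arm the second.
Mir152 hairpin: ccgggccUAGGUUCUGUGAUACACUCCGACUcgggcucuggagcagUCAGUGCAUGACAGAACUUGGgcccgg
In DIV5 control library 1, 365 reads fell on the 3p arm and 35 on the 5p arm, a 3p share of 91.2% (95% Wilson interval 88.1% to 93.6%). In library 5 there were 895 and 67 reads, a share of 93.0% (91.2% to 94.5%). In libraries 2, 3 and 4 the share was 43.1%, 63.0% and 58.9%. The other 3 groups averaged 57.1% ± 5.83 in DIV5 GDNF, 56.6% ± 9.44 in DIV1 GDNF and 55.7% ± 9.28 in DIV1 control cultures (SD, n = 5 each), so that apart from those libraries the arms of miR-152 were of similar abundance.

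The other hairpins were dominated by their 3p arms in every library. For miR-148a the 3p arm held 98.5%, 98.4%, 98.3% and 98.1% of the reads of both arms, as means of DIV5 GDNF, DIV5 control, DIV1 GDNF and DIV1 control cultures. For miR-148b it held 96.7% ± 0.362 in DIV5 GDNF and 94.2% ± 1.73 in DIV1 GDNF cultures, and 96.4% ± 0.508 in DIV5 control and 94.6% ± 0.609 in DIV1 control cultures (SD, n = 5 each). In control cultures the DIV5 libraries, at 95.6% to 96.8%, lay above all DIV1 libraries, at 93.9% to 95.2%. With GDNF the DIV5 and DIV1 libraries overlapped, because DIV1 GDNF library 5 reached 96.3%. A share of this kind compares reads within a library and does not depend on the scaling.

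**Figure D2:**
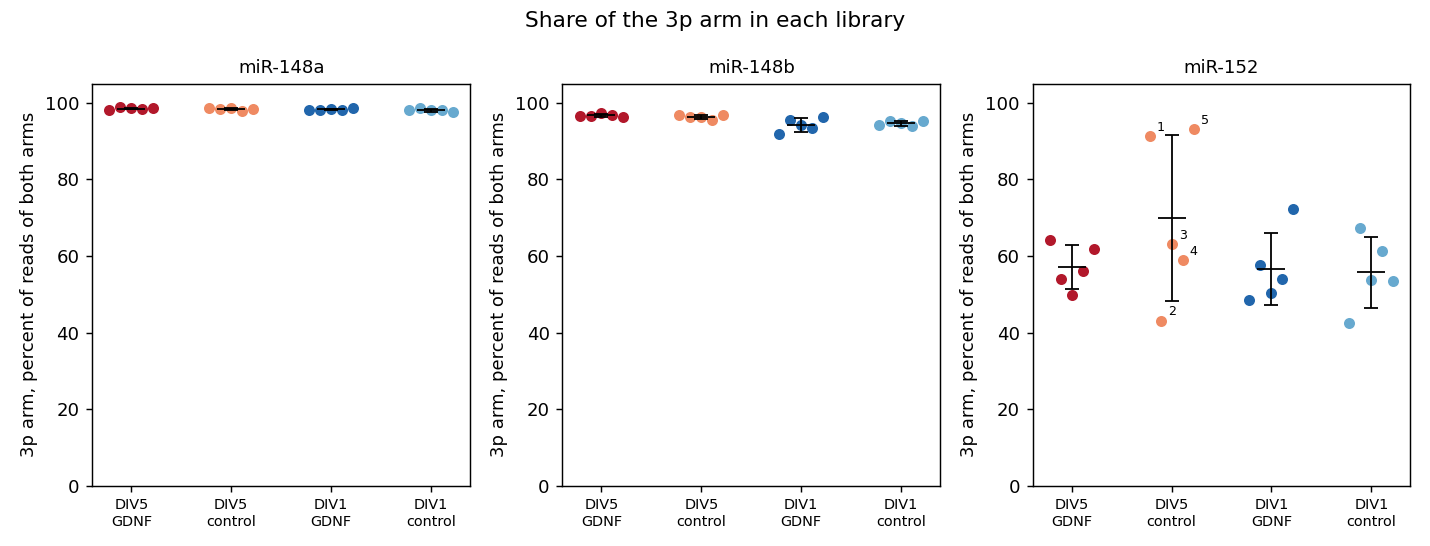
Percentage of the reads of each hairpin that fell on its 3p arm, in every library, with the mean ± SD of the 5 libraries of a group. miR-148a and miR-148b lie above 91% throughout, whereas miR-152 lies between 42.6% and 72.2% except in DIV5 control libraries 1 and 5, at 91.2% and 93.0%.

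Summed over the 3 arms that share the seed, the family had 6244 ± 447 CPM in DIV5 GDNF cultures, against 4940 ± 729 CPM in DIV5 control cultures (SD, n = 5 each). At DIV1 it had 5725 ± 299 CPM with GDNF and 5614 ± 583 CPM in control cultures. The library ranges were 5883 to 7020 CPM, 3979 to 5953 CPM, 5431 to 6222 CPM and 4786 to 6160 CPM, in the same order of groups. The DIV5 control libraries overlapped each of the other groups in range. Within the 5 same-numbered pairs of DIV5 libraries the total was higher with GDNF in 5 of 5. That contrast led to the choice of the family, so this count is description only. Without DIV5 control libraries 1 and 5, whose totals were 3979 and 4611 CPM, the DIV5 control mean was 5369 ± 521 CPM (SD, n = 3). No test was made of this sum.

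The make-up of the seed total differed between the days. miR-148a-3p made up 56.9%, 56.5%, 54.8%, 54.9% and 50.4% of it in DIV5 GDNF libraries, and 46.8%, 46.5%, 51.6%, 51.7% and 50.0% in DIV5 control libraries. At DIV1 it made up 62.4%, 59.2%, 60.1%, 60.2% and 54.6% with GDNF, and 66.3%, 60.5%, 58.0%, 56.9% and 59.4% in control libraries. In control cultures every DIV5 library was below every DIV1 library, whereas with GDNF the DIV5 and DIV1 libraries overlapped.

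Expressed as a ratio, miR-148a-3p over miR-148b-3p was 1.23 ± 0.125 in DIV5 GDNF and 1.49 ± 0.172 in DIV1 GDNF cultures. It was 1.02 ± 0.0948 in DIV5 control and 1.56 ± 0.263 in DIV1 control cultures (SD, n = 5 each). The DIV5 control cultures thus had about as many reads of one sister arm as of the other. miR-152-3p contributed 0.489% of the total in DIV5 GDNF, 2.02% in DIV5 control, 0.641% in DIV1 GDNF and 0.676% in DIV1 control cultures, as group means. Its DIV5 control mean was 0.511% without libraries 1 and 5.

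**Figure D3:**
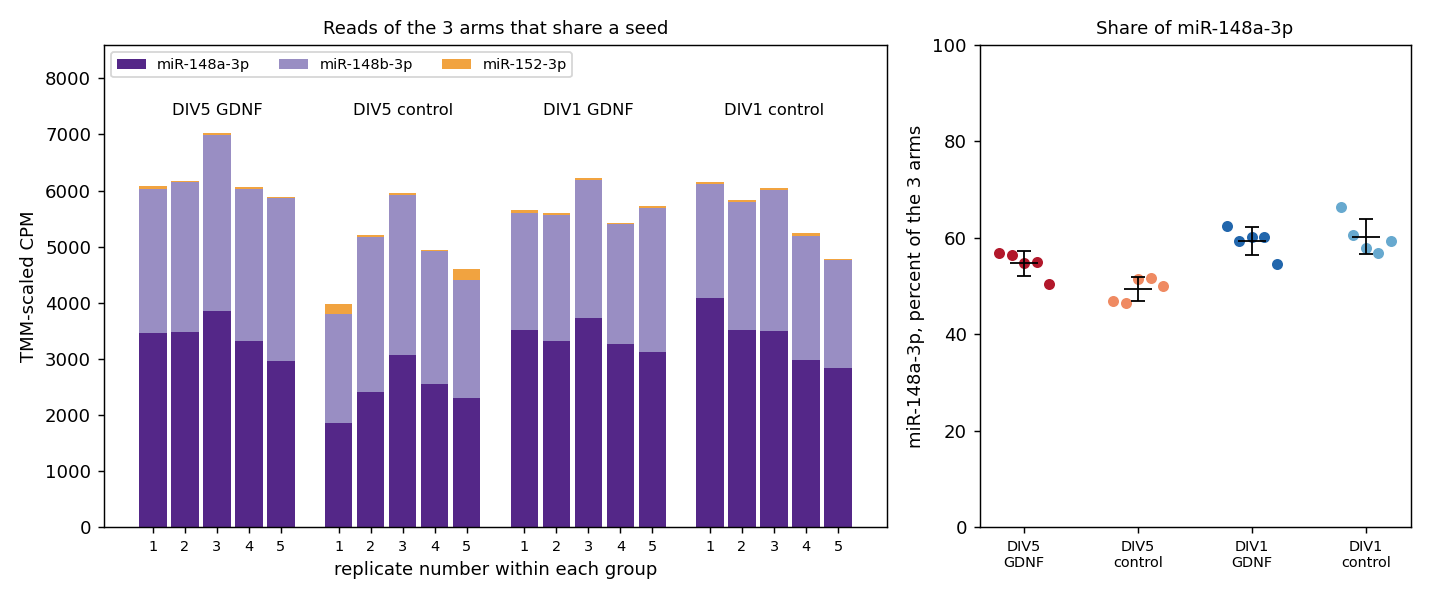
Left, stacked TMM-scaled CPM of the 3 arms with the shared seed in each library, with the libraries of a group in the order of their replicate numbers; right, the percentage of that total due to miR-148a-3p, with the mean ± SD of 5 libraries. The DIV5 control bars are on average the shortest, with a mean of 4940 CPM, and their miR-148a-3p share averages 49.3%, against 60.2% at DIV1 in control cultures.

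DIV5 was set against DIV1 first in cultures that had GDNF. miR-148b-3p rose and miR-148b-5p fell, so the arms of 1 hairpin moved in opposite directions; the other 4 arms did not pass the test. Of the 6 arms 2 were called, 1 in each direction, against a background of 52.4% of the 542 miRNAs called, 25.1% higher and 27.3% lower. The median log2 change was -0.24 for the family and 0.0017 over all 542. The DIV5 GDNF libraries also entered the contrast on which the family was selected, so these p-values are not independent of its choice. These and all later p-values are Benjamini-Hochberg adjusted over the 542 and come from edgeR's quasi-likelihood test.

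miR-148b-3p rose to 2795 ± 226 CPM in DIV5 GDNF cultures, against 2293 ± 208 CPM in DIV1 GDNF cultures (SD, n = 5 each), a log2 change of 0.29 (SE 0.11, adjusted p = 0.0389). The ranges, 2573 to 3140 CPM and 2081 to 2566 CPM, met without overlapping. The adjusted p was above 0.05 without DIV5 GDNF library 3 or DIV1 GDNF library 2, reaching at most 0.0588. It was 0.272 with DIV5 libraries 1 and 2 only, for a change of 0.19, and 0.0127 with DIV5 libraries 3 to 5 only, for a change of 0.39. That split follows the percentage of reads outside annotated miRNAs, 17.7% to 19.5% in DIV5 libraries 1 and 2 and 9.51% to 13.3% in DIV5 libraries 3 to 5. The percentage was 16.5% to 20.5% in DIV1 GDNF libraries and 18.9% to 22.6% in DIV1 control libraries. DIV5 libraries 3 to 5 thus differed from DIV1 in this percentage as well as in the day. They were also deeper, with 2969524 to 4324505 counts, against 1061619 to 1907937 in DIV5 libraries 1 and 2 and at most 1761023 at DIV1. The part of this percentage and of depth in the changes with the day was not tested.

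miR-148b-5p, the minor strand of the same hairpin, had 91.3, 92.9, 88.5, 90.8 and 112 CPM in DIV5 GDNF libraries, against 185, 109, 153, 151 and 98.8 CPM in DIV1 GDNF libraries. DIV5 GDNF library 5 lay above the lowest DIV1 values, and the other 4 DIV5 GDNF libraries lay below all of them. The log2 change was -0.56 (SE 0.19, adjusted p = 0.0164). The call was lost without DIV5 GDNF library 3, DIV1 GDNF library 1 or DIV1 GDNF library 4, and also with upper quartile scaling (adjusted p = 0.0521), scaling to library totals (adjusted p = 0.0820) or no filter on low counts, where the change was -0.28 (adjusted p = 0.406). With DIV5 libraries 1 and 2 only the change was -0.61 (adjusted p = 0.0490), and with libraries 3 to 5 only it was -0.49 (adjusted p = 0.0617).

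The remaining arms had log2 changes of 0.0094 for miR-148a-3p (SE 0.12, adjusted p = 0.955), -0.28 for miR-152-3p (SE 0.50, adjusted p = 0.648; without DIV5 control libraries 1 and 5, which share the fit, -0.24, SE 0.22, adjusted p = 0.344), -0.20 for miR-148a-5p (SE 0.19, adjusted p = 0.381) and -0.43 for miR-152-5p (SE 0.32, adjusted p = 0.263). The levels of miR-148a-5p were 52.3 ± 9.40 CPM in DIV5 GDNF and 59.4 ± 8.65 CPM in DIV1 GDNF cultures, and those of miR-152-5p were 22.8 ± 6.49 CPM and 30.0 ± 12.2 CPM in the same groups (SD, n = 5 each).

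Without GDNF, both arms of miR-148a and the 5p arm of miR-148b fell at DIV5 relative to DIV1, while miR-152-3p passed the test as higher only through DIV5 control libraries 1 and 5. Of the 6 arms, 4 were called, 1 higher and 3 lower. This share was near the background, since 60.7% of the 542 miRNAs were called, 31.4% higher and 29.3% lower. The median log2 change was -0.46 for the family and 0.10 over all 542. This comparison uses the DIV5 control libraries that also entered the contrast for which the family was picked. Its p-values are therefore not independent of that choice either.

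miR-148a-3p fell to 2443 ± 436 CPM in DIV5 control cultures, against 3389 ± 495 CPM in DIV1 control cultures (SD, n = 5 each), a log2 change of -0.47 (SE 0.12, adjusted p = 0.00240). Only DIV5 control library 3, at 3069 CPM, lay above the 2 lowest DIV1 control libraries. The change was -0.32 without DIV5 control libraries 1 and 5 (adjusted p = 0.0321), -0.62 with DIV5 libraries 1 and 2 only (adjusted p = 0.00234) and -0.36 with DIV5 libraries 3 to 5 only (adjusted p = 0.0292). Scaling to library totals alone moved the median of the 542 up by 0.25 and gave -0.22 (adjusted p = 0.138), and fitting without a filter moved it up by 0.21 and gave -0.26 (adjusted p = 0.229). The share of miR-148a-3p in the seed total, described above, does not depend on that choice, but it also falls when miR-148b-3p rises. With scaling to library totals miR-148b-3p had a change of 0.38 (adjusted p = 0.00507). The share alone therefore does not show a fall of miR-148a-3p.

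miR-148a-5p, its partner strand, had 25.4, 41.5, 40.5, 53.6 and 37.1 CPM in DIV5 control libraries, against 79.5, 49.5, 67.1, 58.9 and 72.8 CPM in DIV1 control libraries. A single DIV5 control library, number 4, lay above the lowest DIV1 control library. The log2 change was -0.72 (SE 0.19, adjusted p = 0.00281), and it was called when any 1 of the 10 libraries compared was left out and without DIV5 control libraries 1 and 5, where it was -0.51 (adjusted p = 0.0293). Within the DIV5 split it was -0.95 with libraries 1 and 2 only (adjusted p = 0.00559) and -0.59 with libraries 3 to 5 only (adjusted p = 0.0136).

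The other changes without GDNF were less firm. miR-148b-5p had 64.6, 104.7, 111, 109.6 and 69.0 CPM in the DIV5 control libraries, against 128, 115, 137, 144 and 97.6 CPM in DIV1 control libraries, which overlapped. Its log2 change of -0.44 (SE 0.19, adjusted p = 0.0466) was -0.17 without DIV5 control libraries 1 and 5 (adjusted p = 0.428), the lowest libraries of that group. It was -0.52 (adjusted p = 0.0744) with DIV5 libraries 1 and 2 only and -0.36 (adjusted p = 0.157) with libraries 3 to 5 only.

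miR-152-3p had a log2 change of 1.25 (SE 0.49, adjusted p = 0.0332) with all libraries, and of -0.42 (adjusted p = 0.155) without DIV5 control libraries 1 and 5. Its change was 0.81 (adjusted p = 0.154) in the fit with a replicate block within each day. The same block brought miR-152-5p past the threshold, with a change of -0.60 (adjusted p = 0.0253), against -0.71 (SE 0.32, adjusted p = 0.0618) without the block. miR-152-5p had 20.1 ± 7.34 CPM in DIV5 control and 31.6 ± 14.5 CPM in DIV1 control cultures (SD, n = 5 each), and the ranges overlapped. miR-148b-3p had a log2 change of 0.14 (SE 0.11, adjusted p = 0.300), which became 0.30 (adjusted p = 0.0211) without DIV5 control libraries 1 and 5 and 0.38 (adjusted p = 0.00507) with scaling to library totals.

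**Figure D4:**
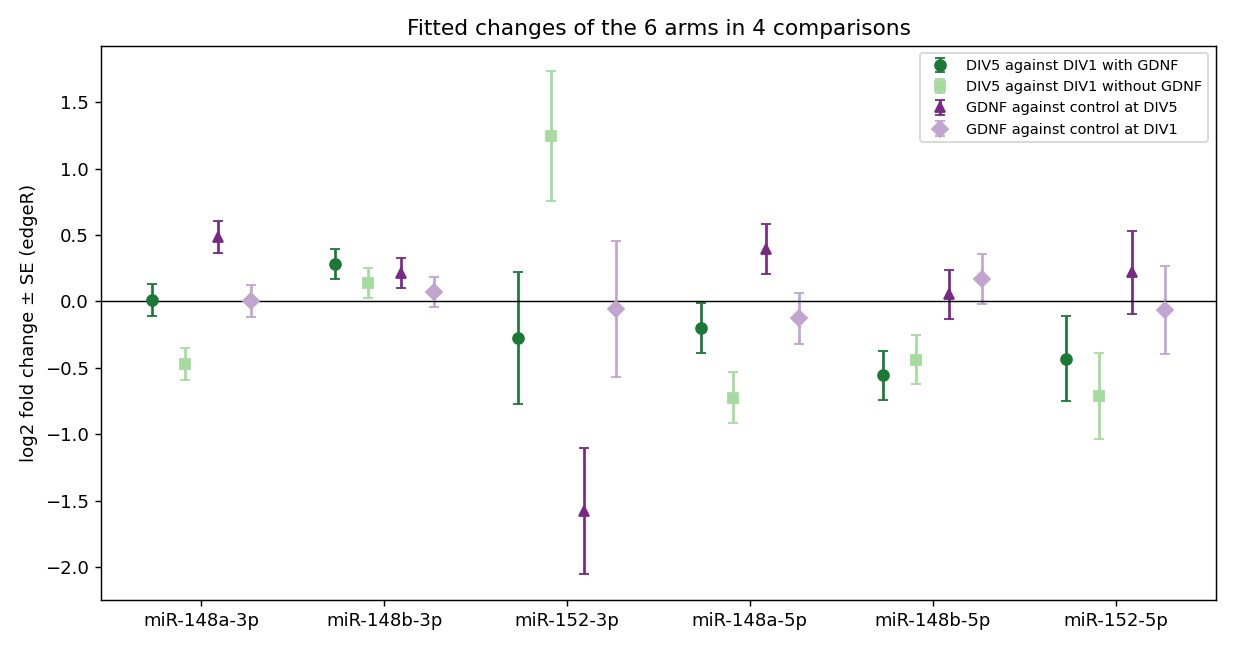
Fitted log2 fold change of each arm in 4 comparisons, with bars of ± 1 SE from edgeR; positive values are higher at DIV5 or with GDNF. miR-148a-3p lies at 0.0094 for DIV5 against DIV1 with GDNF and at -0.47 without GDNF, and miR-152-3p has the widest bars in all 4.

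At DIV5, cultures with GDNF were set against control cultures. miR-148a-3p averaged 3418 ± 319 CPM with GDNF and 2443 ± 436 CPM in control cultures (SD, n = 5 each), 1.40 times as much by the fit, with a log2 difference of 0.48 (SE 0.12). The level of miR-148a-3p was higher with GDNF in all 5 same-numbered pairs, and the group ranges overlapped through 1 library of each group. As this contrast led to the choice of the family, the pairs are description only. The log2 difference was 0.62 with DIV5 libraries 1 and 2 only, 0.36 with libraries 3 to 5 only, and 0.33 without DIV5 control libraries 1 and 5. miR-152-3p averaged 30.5 ± 9.64 CPM with GDNF and 90.1 ± 86.0 CPM in control cultures, a log2 difference of -1.58 (SE 0.48) that was 0.088 without DIV5 control libraries 1 and 5.

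The other arms differed less at DIV5. The log2 difference was 0.22 for miR-148b-3p (SE 0.11) and 0.061 without DIV5 control libraries 1 and 5. It was 0.40 for miR-148a-5p (SE 0.19), with 52.3 ± 9.40 CPM in GDNF and 39.6 ± 10.1 CPM in control cultures, and 0.19 without those libraries. miR-148b-5p had a difference of 0.055 (SE 0.18), which was -0.20 (SE 0.18) without those libraries. miR-152-5p had a difference of 0.22 (SE 0.31), which was 0.015 (SE 0.34) without them.

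None of the 6 arms was called in this contrast by edgeR, against a background of 0.185%, or 1 of 542. At an unadjusted p below 0.05 there were 3 of the 6 arms and 88 of the 542 miRNAs. DESeq2 called 2 of the 6 and 26 of the 542, and limma voom 0 of the 6 and 1 of the 542. Deviations of DIV5 libraries with the same replicate number were positively correlated, though the labels do not pair them. In the fit with a replicate block within each day 1 of the 6 was called. It was miR-148a-3p, with a log2 difference of 0.50, against a background of 0.554%, or 3 of 542. Because this contrast led to the choice of the family, nothing is read from these counts.

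At DIV1, the differences between GDNF and control cultures were each smaller than their SE. On the log2 scale the difference was 0.0027 for miR-148a-3p (SE 0.12), 0.068 for miR-148b-3p (SE 0.11), -0.057 for miR-152-3p (SE 0.51), -0.13 for miR-148a-5p (SE 0.19), 0.17 for miR-148b-5p (SE 0.19) and -0.064 for miR-152-5p (SE 0.33). Without DIV5 control libraries 1 and 5, which take no part in this comparison but share the fit, the difference of miR-152-3p was -0.093 and its SE 0.23. edgeR called none of the 6 arms and none of the 542, a background of 0%. At an unadjusted p below 0.05 there were 0 of the 6 and 7 of the 542. DESeq2 and limma voom each called 0 of the 6 and 0 of the 542.

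The difference between the GDNF effects at DIV5 and DIV1 was 0.48 (SE 0.17) on the log2 scale for miR-148a-3p, 0.52 (SE 0.27) for miR-148a-5p and -1.52 (SE 0.70) for miR-152-3p. Without DIV5 control libraries 1 and 5 the differences were 0.36 (SE 0.16), 0.34 (SE 0.25) and 0.18 (SE 0.33) for these arms, so that the sign of miR-152-3p turned. It holds the contrast that led to the choice of the family, so no p is given. edgeR called none of the 6 arms and none of the 542, a background of 0%. At an unadjusted p below 0.05 there were 2 of the 6 and 50 of the 542. DESeq2 and limma voom each called 0 of the 6 and 0 of the 542.

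Lists of miRNAs that mark cell types were counted in the same fit, beside the 52.4% of all 542 miRNAs called with GDNF and the 60.7% called without. The lists were not refitted without DIV5 control libraries 1 and 5. Of 9 listed neuronal miRNAs 7 were tested, and 5 were higher at DIV5 than at DIV1 with GDNF and 6 without, none lower. The most abundant were miR-9-5p, with a log2 change of 0.0018 with GDNF (adjusted p = 0.993), and miR-128-3p, with 1.33 (adjusted p = 0.00037). miR-218-5p, called only without GDNF, had 2187 ± 941 CPM in DIV5 control and 1144 ± 119 CPM in DIV1 control cultures (SD, n = 5 each). All 9 miRNAs of proliferating progenitors were lower at DIV5 in both comparisons, led in abundance by miR-92a-3p and miR-25-3p. Of 8 tested vascular and mesenchymal miRNAs, 1 was higher (miR-140-3p) and 3 were lower in each comparison, miR-143-3p among them, a share near or below that of all miRNAs. The summed progenitor list had 15489 to 23873 CPM in DIV5 GDNF, 15064 to 20998 CPM in DIV5 control, 61799 to 77142 CPM in DIV1 GDNF and 61081 to 83950 CPM in DIV1 control libraries.

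The neuronal list summed to 68940 to 112158 CPM, 78063 to 107701 CPM, 68158 to 93162 CPM and 58119 to 96103 CPM in the same order of groups. Most of this sum was miR-9-5p, with a mean of 72015 CPM over all libraries, which was not called in either comparison. The sum therefore says little about the other neuronal miRNAs. The vascular and mesenchymal list summed to 1710 to 4810 CPM, 2100 to 3389 CPM, 4211 to 5574 CPM and 4146 to 6631 CPM. miR-138-5p of the neuronal list and miR-126a-5p of the vascular list were at 0 in every library, as was miR-219a-5p of the oligodendrocyte list. The part of these marker levels in the family's changes with the day was not tested. No member of any list was called for GDNF at either day.

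Of 3 tested glial miRNAs, 1 was higher at DIV5 than at DIV1 with GDNF and 2 without; the most abundant, miR-21a-5p, had a log2 change of -0.080 (adjusted p = 0.480) with GDNF. miR-146a-5p of that list had 73.4 ± 55.0 CPM in DIV5 control cultures and was called without GDNF (adjusted p = 0.0425) and not with GDNF (adjusted p = 0.139). Of 3 tested erythroid miRNAs 1 was higher and 2 were lower in each comparison, with miR-486a-5p higher and miR-451a lower. The row of miR-486a-5p is shared with miR-486b-5p, so the reads of these names were not told apart. The 2 tested leukocyte miRNAs, miR-142a-5p and miR-155-5p, were both lower with GDNF, and 1 of them without. The only tested oligodendrocyte miRNA, miR-219a-2-3p, was lower in both comparisons, while miR-338-3p stayed under the filter.

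miR-29 was followed beside the family because it too is known to repress DNA methyltransferases, in its case Dnmt3a and Dnmt3b. Of its 3 mature 3p arms listed, 2 were tested and both rose at DIV5. miR-29a-3p had 85.4 ± 15.8 CPM in DIV5 GDNF and 46.5 ± 13.8 CPM in DIV1 GDNF cultures (SD, n = 5 each), a log2 change of 0.90 (adjusted p = 0.000485), and the change without GDNF was 0.97 (adjusted p = 0.000173). miR-29c-3p had log2 changes of 0.99 with GDNF (adjusted p = 0.00281) and 1.24 without (adjusted p = 0.000347). The abundant miR-148a-3p, by comparison, changed by 0.0094 with GDNF and -0.47 without. Whether the family and miR-29 differ in their change was not tested.

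The miRNAs whose levels ran closest to each guide strand over the 20 libraries were found by the root mean square difference of log2 CPM, each centred on its own mean, among 433 miRNAs with a mean of at least 10 CPM. For miR-148b-3p the nearest were miR-708-3p, at 0.104, and miR-30a-5p, at 0.142, followed by miR-488-3p, miR-340-5p and miR-99a-3p, against an SD of its own of 0.204. For miR-148a-3p they were miR-30a-3p, at 0.184, miR-30e-3p, at 0.187, miR-677-5p, miR-666-5p and miR-181c-3p, against an SD of 0.277. For miR-152-3p they were miR-3535, at 0.425, miR-425-3p, miR-667-3p, miR-323-3p and miR-344f-3p, against an SD of 0.832.

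The 3 guide strands had none of these neighbours in common. Without DIV5 control libraries 1 and 5, miR-708-3p and miR-30a-5p remained nearest to miR-148b-3p, and 3 of the 5 neighbours of miR-148a-3p remained. Those 3 lay at 0.189 to 0.199, about as far as the SD of 0.195 of miR-148a-3p itself, so their likeness to it was weak. None of those of miR-152-3p did: miR-409-3p, miR-3057-5p, miR-760-3p, miR-431-5p and miR-299a-3p took their place, at 0.257 to 0.270 against an SD of 0.361. All libraries share the 4 groups and their depth differences, so likeness here describes this series only.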

How the data were processed

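Each library has a deposited file of unnormalized read counts, with a row for every mature miRNA. The submitters' processing notes name cutadapt 1.8.1, STAR 2.4.1d, HTSeq and build mm10 for the authors' steps; the miRNA annotation and strand setting are not given in the sources used here. Reads outside annotated miRNAs, tallied in a line of their own, made up 9.51% to 22.6% of each file and were left out.

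Tests were run with edgeR 4.0.16 under R 4.3.3. Its filterByExpr kept 542 of 1581 miRNAs with a read, which held at least 99.9% of each library's counts. The 20 libraries, grouped by their labels, entered 1 TMM-scaled quasi-likelihood fit (glmQLFit, robust) with a coefficient per group. Two-sided p-values were adjusted over the 542 by the Benjamini-Hochberg method, and an adjusted p below 0.05 was a call. The fit was also run on simulated counts with known changes. Those libraries were drawn independently, so the run does not cover libraries that deviate together. DESeq2 1.42.0, limma 3.58.1 (voom), other scalings, filters and sample sets were alternatives; scaling to library totals was chosen after seeing the data. Levels are TMM-scaled CPM with the SD; likeness used log2 CPM with a pseudocount of 0.5. In these libraries 3 reads correspond to 0.694 to 7.14 CPM. Sequences and coordinates are RefSeq's for GRCm38.p6, host genes GENCODE vM21's.

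The family's members, the marker and miR-29 lists, the tests and the rule for named miRNAs (the 6 arms, the 5 miRNAs most like each 3p arm, the 2 most abundant of each list, and names with the same seed) were chosen with earlier results of these data known. Other list members named were chosen after their values were seen.

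Same-numbered libraries were checked for pairing by the correlation of their deviations from the group means over 439 miRNAs. At DIV5 all 5 correlations of GDNF with control were above 0.1 (0.217 to 0.641). Same-numbered DIV5 libraries were therefore set side by side in the descriptive pair counts, and a replicate block within each day was fitted as an alternative. The main fit had no such block, so its SEs and p-values are unpaired. Correlations between libraries of different numbers were not compared, so pairing itself was not shown, and the labels do not give it. At DIV1 the correlations of same-numbered GDNF and control libraries were 0.0741 to 0.651, and those between days were -0.166 to 0.181. Not all of these were above 0.1. Within groups, every 2 libraries differed by far more than sampling noise (chi-square at least 10.3 per degree of freedom).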

Additional observations from a re-analysis of the deposited data

Results flagged for a closer look

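In 60 sets of 5 libraries (15 measures of the family in each of 4 groups), 5 held a library far from the other 4, where chance would give about 1 in 20. DIV5 GDNF library 3 had a seed total of 7020 CPM, against 5883 to 6178 CPM in the other 4 libraries of its group. DIV5 GDNF library 1 had 0.768% of its seed total from miR-152-3p, against 0.358% to 0.445%, and DIV5 GDNF library 5 had 112 CPM of miR-148b-5p, against 88.5 to 92.9 CPM. DIV1 GDNF library 5 had 44.2 CPM of miR-148a-5p, against 61.7 to 65.4 CPM, and correspondingly 98.6% of its miR-148a reads on the 3p arm, against 98.1% to 98.3%. That library was the shallowest of the 20, with 420118 counts, and its miR-148a-5p level rested on 17 reads.

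The gap of DIV5 control libraries 1 and 5 in miR-152-3p is not in this list, because a test of the most extreme library does not pick out 2 libraries that are high together.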

How the results depend on the processing

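For DIV5 against DIV1 with GDNF, 2 arms and 284 of 542 miRNAs were called. Only 1 arm was called with upper quartile factors (275 of 542 miRNAs), library totals (283 of 542) or no filter (288 of 1581). The same held with DIV5 replicates 1 and 2 only (191 of 514) and DIV5 replicates 3 to 5 only (306 of 531). When 1 library was left out, 0 to 2 arms and 257 to 287 miRNAs were called. Without GDNF 4 arms and 329 of 542 miRNAs were called. No arm was called without a filter (338 of 1581 miRNAs), and 2 were when only the groups compared were fitted (286 of 487). When 1 library was left out, 2 to 4 arms and 303 to 344 miRNAs were called. The other alternatives gave 3 or 4 arms. miR-152-3p and miR-148b-5p accounted for most of this variation without GDNF. They were called in 10 and 6 of 23 alternatives, against 21 for miR-148a-3p and 22 for miR-148a-5p. The directions varied as well. With library totals 2 arms were called higher and 1 lower without GDNF. With limma voom and with the replicate block within each day 0 were higher and 4 lower, against 1 and 3 in the main fit. Scaling to library totals gave 166 higher and 117 lower calls over all 542 with GDNF, against 136 and 148 with TMM, and 228 and 111 without GDNF, against 170 and 159.

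For GDNF against control at DIV5, where no arm was called, 1 was with a filter at a mean of 10 CPM and with the replicate block within each day, 2 with DESeq2, and 0 to 2 when 1 library was left out, with 2 without DIV5 control library 2, 3 or 4. Over all miRNAs the 1 call became 26 with DESeq2, 13 with the 10 CPM filter, 3 with the block and 43, 32 and 37 without DIV5 control library 2, 3 or 4. No arm was called at DIV1 or for the difference of the effects under any alternative run.

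In DIV5 against DIV1, directions turned for miR-152-3p without GDNF, at -0.42 without DIV5 control libraries 1 and 5, for miR-152-3p with GDNF, at 0.013 with DIV5 replicates 1 and 2 only, and for miR-148a-5p with GDNF, at 0.062 without a filter. In GDNF against control at DIV5 they turned in 7 cases, namely miR-152-3p, at 0.088 without DIV5 control libraries 1 and 5, miR-148b-5p in 5 alternatives, down to -0.20 without those libraries, and miR-152-5p, at -0.011 with DIV5 replicates 1 and 2 only. At DIV1 they turned in 16 cases, 13 of them for miR-148a-3p, whose difference was 0.0027. For the difference of the effects they turned in 3, with miR-152-3p at 0.18 without DIV5 control libraries 1 and 5, miR-148b-5p at 0.021 without DIV1 GDNF library 1 and miR-152-5p at -0.047 without DIV1 control library 1. The seed total of DIV1 GDNF cultures was 5370 CPM with library totals. Apart from the calls given for miR-148a-3p, miR-152-3p and miR-152-5p, the replicate block within each day changed no family call. The cause of these shifts was not tested.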
